A study of Homo sapiens with 8 samples.

Results

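The genes described here were chosen by their raw counts in 7 of the 8 libraries: each had 50 or more counts in DLD1 and in HCT8, untreated and under hypoxia, and 3 or fewer in HCT116, in HCT116 under hypoxia and in the library labelled NCM460. They are called the silent genes below, and the 3 libraries without them the silent libraries. Of the 54261 genes counted, 117 met these limits. After removal of 10 genes by symbol (the LINC, HIST and antisense names, which, with HOX, PCDH and COL names, the rule leaves out), 5 on chromosome X and 11 loci that the annotation tables placed on no chromosome, 91 autosomal genes remained. They made up 0.79% of the 11510 autosomal genes that had 50 or more counts in each DLD1 and HCT8 library (the expressed genes below). Since the contrast between these lines picked the genes, it is given only as a description and was not tested.

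The libraries were total RNA depleted of ribosomal RNA. DLD1, HCT116 and HCT8, lines from colorectal tumours, were sequenced once untreated and once under hypoxia, whose oxygen level and duration the labels do not give. NCM460 and HIEC6, labelled as normal human intestinal epithelial lines, were sequenced once, untreated. Each line under each treatment was thus 1 library, and no label names a separate culture, so that p-values measure the spread between these libraries. HIEC6 was the library that the rule did not use.

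Total counts lay between 45519306 and 57374239, and 3 counts, taken as the floor, equalled 0.0523 to 0.0659 CPM (counts over the library total, times 1e6), which covers counting error only. Across all genes the libraries labelled NCM460 and HCT116 correlated at r = 0.994 (Pearson, log2(CPM + 1), across genes, which are not replicates), against 0.980 for HCT116 and HCT116 under hypoxia and 0.924 for NCM460 and HIEC6. The library labelled NCM460 was thus closer to HCT116 than to the other normal line, and the silent libraries may not stand for separate lines. Untreated DLD1 and HCT8 correlated at 0.973, above the 0.948 and 0.953 of each with untreated HCT116. Whether DLD1 and HCT8 come from separate donors was not tested. The markers matched an epithelial label in part: all 10 epithelial markers had 50 or more counts in every library but HIEC6, where EPCAM, CLDN3 and ESRP1 had 10, 0 and 5 counts. The other 7 reached 50 counts in HIEC6. Among them KRT8 and KRT18 had 243272 and 211257 counts, against 91699 and 77426 in NCM460, while KRT19 had 56 against 72853. Of 7 intestinal markers, 5 reached 50 counts in each HCT8 library, 3 and 4 in DLD1 and DLD1 under hypoxia, 1 in each silent library and 0 in HIEC6. The 12 mesenchymal markers summed to 1419 CPM in HIEC6 and to between 13.7 and 182 CPM elsewhere. VIM alone, with 69375 counts, made up 1223 CPM of the HIEC6 sum. By number HIEC6 did not stand out: 7 of the 12 had 50 or more counts there, 7 in NCM460 and in HCT116, and 3 to 8 in the other libraries. The untreated and hypoxia libraries of the CRC lines share no code in the description field of the labels, which does not say what the code marks, so treatment and code cannot be told apart.

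A gene can be without transcript in one line and active in another of the same tissue when its promoter is methylated, when its chromatin is closed, when an activating factor is missing or when the gene itself is lost. Many promoters of widely used genes are rich in the dinucleotide CG, the site of DNA methylation in mammals, whereas many promoters of tissue-restricted genes are poor in it. None of DNA methylation, chromatin or gene copies was measured in these samples. In bulk RNA, fewer cells that use a gene and less RNA per cell cannot be told apart.

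The windows before the gene starts differed widely among the silent genes in their CG content. The following are the 250 bases upstream of the start on GRCh37 (GENCODE release 44 lifted to this build, plus strand for both), with every CG in capitals. They show a window with many CG dinucleotides and one with none. That of CROT (chr7:86974730-86974979) is shared with another silent gene, TP53TG1, which starts inside it and is read the other way, and that of ADGRF4 (chr6:47653350-47653599) held no CG.
CROT: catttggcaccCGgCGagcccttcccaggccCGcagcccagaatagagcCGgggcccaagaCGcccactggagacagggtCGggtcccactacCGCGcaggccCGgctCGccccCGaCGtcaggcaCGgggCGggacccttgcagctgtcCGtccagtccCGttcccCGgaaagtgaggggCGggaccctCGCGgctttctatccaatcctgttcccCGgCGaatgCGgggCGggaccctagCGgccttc
ADGRF4: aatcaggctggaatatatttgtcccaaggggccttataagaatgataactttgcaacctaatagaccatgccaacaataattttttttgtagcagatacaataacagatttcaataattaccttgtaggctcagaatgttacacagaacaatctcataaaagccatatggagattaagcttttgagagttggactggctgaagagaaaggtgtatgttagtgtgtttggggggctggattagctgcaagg
These stretches hold 25 and 0 CG dinucleotides. In the DLD1, DLD1 hypoxia, HCT8 and HCT8 hypoxia libraries, in this order here and below, CROT had 327, 294, 498 and 342 counts and ADGRF4 969, 1032, 380 and 346. In the silent libraries they had at most 3 and 0 counts.

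Over the 300 bases from 250 before to 50 after the start, the 84 silent genes with a GRCh37 position (92.3% of 91) had a median of 12 CG dinucleotides, from 0 to 45. The expressed genes (11091 of 11510 with a window) had a median of 23. A window was called CG-rich where its CG count was at least 0.6 times that expected from its C and G and its GC content at least 50%: 34 of the 84 silent genes (40.5%) and 71.1% of the expressed genes were CG-rich. The letters TATAAA, searched on both strands, stood in 13 silent-gene windows (15.5%) and in 6.97% of those of the expressed genes. Such a match is a description of letters, and the annotated start need not be the start used in these lines. The silent genes also had lower levels where they were on, with a median of 7.51 CPM over the 4 DLD1 and HCT8 libraries against 36.6 CPM, and the part of level in the difference in CG content was not tested.

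**Figure D1:**
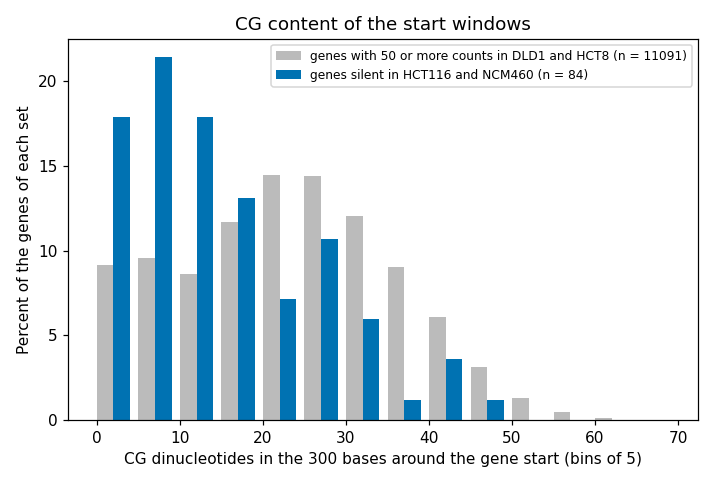
Share of genes (percent, y axis) by the number of CG dinucleotides in the 300 bases around the annotated gene start (x axis, bins of 5), for the 84 silent genes with a position (blue) and the 11091 expressed genes with one (grey). The blue bars stand higher at the left (median 12), the grey ones from 20 on (median 23).

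In the silent libraries the 91 genes together had 57 counts (NCM460), 47 (HCT116) and 42 (HCT116 under hypoxia), or 1.16, 0.90 and 0.76 CPM. In the DLD1 and HCT8 libraries they summed to between 53232 and 73904 counts, or 1147 to 1288 CPM. Of the 91 genes, 24 had 0 counts in all silent libraries, and 10 had a count of 3 in at least 1 of them. The limits cut through a continuous range: with 50 or more counts in DLD1 and HCT8, 36 genes had a highest silent count of 1, 21 of 2, 10 of 3, 11 of 4 and 13 of 5. Just inside the upper limit were CES4A, CST7, KCNMB3 and PDZK1IP1, all 4 with 51 counts in 1 HCT8 library. Just outside it were TDGF1, LOC105377548 and CFTR, with lowest counts of 49, 48 and 47. CFTR, the chloride channel of the epithelial surface, had 0 counts in every silent library and 1265, 2504, 207 and 47 in DLD1 and HCT8. At the lower limit C9orf64, KIT and ZNF891 had a highest silent count of 3, and SH3RF3, TMPRSS3 and LOC107985960 fell outside with 4.

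**Figure D2:**
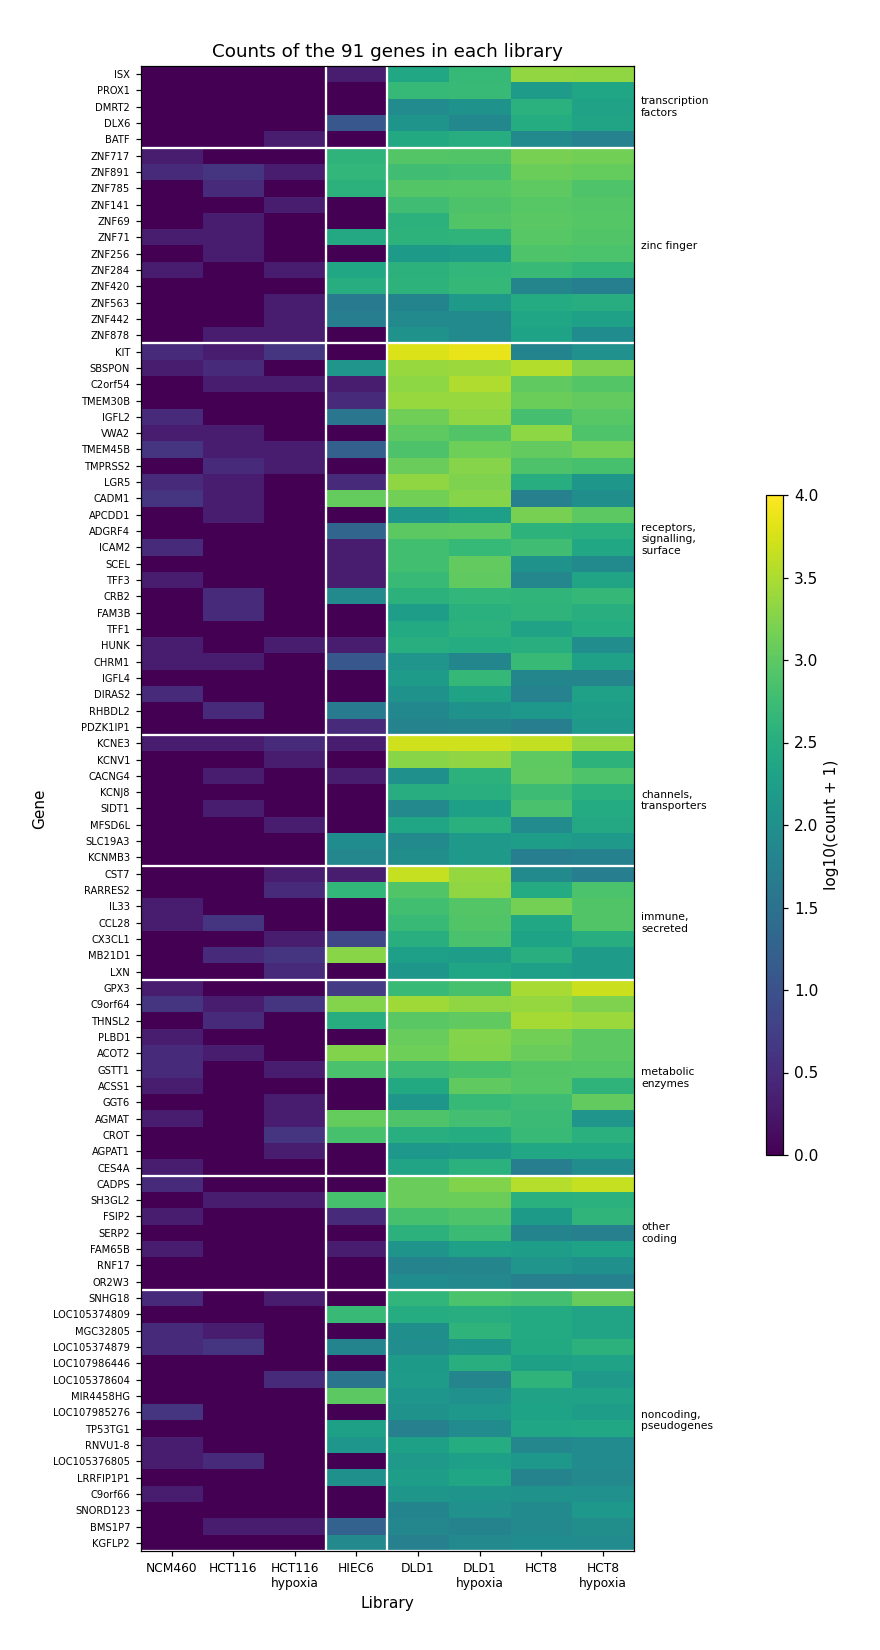
Counts of the 91 genes (rows, grouped by role) in the 8 libraries (columns), as log10(count + 1) in colour. The silent libraries at the left hold 0 to 3 counts by the rule, DLD1 and HCT8 at the right 50 or more, and HIEC6 in the middle is dark for 52 genes and bright for 28.

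Transcription factors apart from the zinc finger genes numbered 5, and 4 of them had 0 counts in all silent libraries. ISX (chr22:35462129-35483380, plus strand), a homeobox factor of the intestinal epithelium that represses uptake of provitamin A, had 0 counts in each silent library, 1 in HIEC6 and 243, 475, 2255 and 2191 in DLD1 and HCT8. Its mean level in the latter was 26.0 ± 22.6 CPM (SD, n = 4 libraries), and the silent libraries were at least 426-fold lower (against the floor of 3 counts in the shallowest). PROX1 (chr1:214156524-214214853), a homeobox factor of lymphatic, liver and intestinal cells, had 0 counts in the silent libraries and in HIEC6, and 474, 488, 160 and 223 in DLD1 and HCT8. DLX6 and DMRT2, developmental factors, and BATF, a leucine zipper factor of lymphocytes, were at 59 to 362 counts in DLD1 and HCT8 and at most 1 in the silent libraries. ISX and PROX1 were the only silent genes in a list of 25 intestinal transcription factors. Of that list 16 genes had 50 or more counts in each silent library, 20 in each DLD1 library, 22 in each HCT8 library and 11 in HIEC6. CDX2, the caudal homeobox factor of intestinal identity, had 981, 1010 and 534 counts in the silent libraries, and 8345 to 18275 in DLD1 and HCT8. The silent libraries thus held CDX2 while holding no count of ISX. ASCL2, a factor of intestinal stem cells, missed the limit with 0, 3 and 7 counts and had 3764 to 11256 in DLD1 and HCT8.

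None of the 25 genes of a brush border list was a silent gene. Most could not meet the rule: 7 had 50 or more counts in DLD1, 8 in DLD1 under hypoxia and 11 in each HCT8 library. Of all expressed genes 0.79% were silent, so 0 in a list of this size is near the background. VIL1 missed the limit with 4, 2 and 13 counts in the silent libraries, against 411, 1055, 13632 and 19353. None of 19 genes of DNA methylation and chromatin silencing was one either, again near that background. Of these, 18 had 50 or more counts in all 8 libraries. The exception, DNMT3L, had 0 in each. DNMT1, which maintains DNA methylation after replication, had 6681 to 15992 counts. Levels on this list were not equal across libraries. DNMT3B had 1814, 1776 and 643 counts in the silent libraries, against 295, 302, 1275 and 929 in DLD1 and HCT8. TET1 had 1536, 1235 and 2476, against 61, 242, 408 and 806. MBD1 went the other way, with 2318, 2715 and 2450 against 4165, 4332, 4003 and 4038. The part of these levels in the silent genes was not tested.

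Zinc finger genes, most of which encode DNA-binding repressors, were the most frequent family, with 12 of the 91 genes (13.19%) against 373 of the expressed genes (3.24%). The family was taken by symbol, as ZNF, ZFP or ZSCAN followed by a number. Put the other way, 3.22% of the expressed zinc finger genes were silent, against 0.79% of all expressed genes. This counts genes the rule selected and was not tested. They were ZNF69, ZNF71, ZNF141, ZNF256, ZNF284, ZNF420, ZNF442, ZNF563, ZNF717, ZNF785, ZNF878 and ZNF891, and 8 of the 12 lie on chromosome 19, home of large zinc finger clusters. ZNF717 had 849, 819, 1518 and 1387 counts in DLD1 and HCT8 and 1, 0 and 0 in the silent libraries. ZNF256 had 148, 174, 794 and 730, with 0, 1 and 0. ZNF420 ran the other way between the lines, with 388, 453, 64 and 52, and had 0 in every silent library. ZNF717 has near-identical copies, so its count is uncertain. Of the windows at the starts of the 12 genes, 6 were CG-rich and 0 held TATAAA.

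Epithelial and stem cell markers, receptors and signalling genes formed the largest group, with 24 genes sorted by hand. They are called the receptor, signalling and surface genes elsewhere, although some encode secreted proteins. KIT (chr4:55523434-55606949), the receptor of stem cell factor, had 6247, 7292, 63 and 104 counts in DLD1 and HCT8 and 2, 1 and 3 in the silent libraries. LGR5 (chr12:71833578-71980090), the R-spondin receptor that marks intestinal stem cells, had 2174, 1676, 311 and 128, with 2, 1 and 0 in the silent libraries. APCDD1, an inhibitor of Wnt signalling, had 125, 177, 1521 and 994, with 0, 1 and 0. All were high in 1 of the lines and far lower in the other, KIT and LGR5 in DLD1 and APCDD1 in HCT8. TFF1 and TFF3, trefoil peptides secreted with mucus, had 276, 372, 203 and 299 counts, and 507, 1048, 71 and 215. In the silent libraries TFF1 had 0, 0 and 0 and TFF3 1, 0 and 0. TMPRSS2, a serine protease of the epithelial surface, had 1203, 1883, 749 and 684 counts, with 0, 2 and 1. CADM1, a cell adhesion molecule, had 1409, 1891, 54 and 96, with 3, 1 and 0. TMEM30B, a partner of lipid flippases, had 2435, 2429, 1267 and 1086, with 0 in all silent libraries, which were at least 565-fold lower. SBSPON, a secreted thrombospondin-domain protein, had 2384, 2534, 3460 and 1658, with 1, 2 and 0, and C2orf54 had 2086, 3357, 1057 and 862, with 0, 1 and 1.

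Ion channels and transporters numbered 8. KCNE3 (chr11:74165886-74178774), the subunit that keeps the KCNQ1 potassium channel open in colonic epithelium, had the highest summed counts of the 91 genes: 5081, 5087, 4370 and 2303 in DLD1 and HCT8, 1, 1 and 2 in the silent libraries and 1 in HIEC6. Its mean was 80.4 ± 21.0 CPM (SD, n = 4 libraries). KCNV1, a modifier of voltage-gated potassium channels, had 1966, 2175, 999 and 385, with 0, 0 and 1. KCNJ8, an inward rectifier, had 305, 336, 544 and 359, with 0 in the silent libraries and HIEC6. With KCNMB3, a subunit of the large-conductance calcium-activated channel, these made 4 potassium channel genes among 20 of the expressed genes, a family grouped after its values were seen. CACNG4, a subunit of calcium channels and AMPA receptors, had 102, 374, 1060 and 790 counts, with 0, 1 and 0. SLC19A3, a thiamine transporter, had 77, 141, 165 and 146 counts and 0 in the silent libraries.

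Immune and secreted mediators numbered 7. CST7 (chr20:24929905-24940564), which encodes cystatin F, an inhibitor of lysosomal proteases, had 4472, 2334, 81 and 51 counts in DLD1 and HCT8 and 0, 0 and 1 in the silent libraries. Per kilobase of exon it had the highest level of the genes with an annotated length, 36.7 CPM per kb over the 4 libraries, against 22.3 for KCNE3 and 5.57 for KIT. IL33, an alarmin of epithelial cells, had 620, 860, 1483 and 817, with 1, 0 and 0. CCL28, a mucosal chemokine, had 486, 812, 248 and 834, with 1, 3 and 0. CX3CL1, the membrane-bound chemokine fractalkine, had 334, 710, 210 and 312, with 0, 0 and 1. MB21D1 encodes cGAS, the sensor of cytosolic DNA, and had 179, 176, 335 and 154, with 0, 2 and 3.

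Metabolic enzymes numbered 12. GPX3, a secreted glutathione peroxidase, had 497, 689, 2995 and 4798 counts in DLD1 and HCT8 and 1, 0 and 0 in the silent libraries. C9orf64, an enzyme of queuosine salvage, had 2650, 2187, 2296 and 1698, with 3, 1 and 3. THNSL2, a threonine synthase-like protein, had 934, 1071, 2878 and 2512, with 0, 2 and 0. ACOT2 (mitochondrial thioesterase) had 1307, 1718, 1207 and 965 counts, with 2, 1 and 0. ACSS1 (mitochondrial acetyl-CoA synthetase) had 267, 1045, 876 and 401, with 1, 0 and 0, and CROT (peroxisomal carnitine octanoyltransferase) is given above. ACOT2 shares near-identical sequence with ACOT1, which lies 23823 bp away and was also low in the silent libraries, with 14, 3 and 0 counts against 73 to 168 in DLD1 and HCT8. Reads of the pair may have been split or merged in counting. AGPAT1, a widely used acyltransferase of phospholipid synthesis in the major histocompatibility region, had only 136, 158, 243 and 251 counts in DLD1 and HCT8. It had 0, 0 and 1 in the silent libraries and 0 in HIEC6. These counts are low for a widely used gene, and whether they hold all its reads was not tested. GSTT1, a glutathione transferase whose gene is deleted in many people, had 548, 690, 850 and 886, with 2, 0 and 1. Gene copies were not measured here.

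The remaining coding genes numbered 7, among them CADPS, which primes secretory vesicles for release, with 1211, 1773, 3544 and 4467 counts and 2, 0 and 0 in the silent libraries. Noncoding genes and pseudogenes numbered 16, with means of 1.46 to 14.7 CPM in DLD1 and HCT8. SNHG18 had 428, 738, 626 and 1169 counts, with 2, 0 and 1. The small nucleolar RNA SNORD123 lies inside it and had 62, 105, 79 and 133, with 0 in the silent libraries and HIEC6, and the reads of host and guest cannot be told apart. The pseudogenes BMS1P7, LRRFIP1P1 and KGFLP2 and the small nuclear RNA gene RNVU1-8 have near-identical relatives, and their counts are uncertain.

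HIEC6 was without most of the 91 genes and expressed a minority. It had 3 or fewer counts of 52 genes (57.1%), 4 to 49 of 11 (12.1%) and 50 or more of 28 (30.8%). Of the expressed genes, 92.5% had 50 or more counts in HIEC6. The shares for the 128 genes with the reverse pattern (50 or more in the silent libraries, 3 or fewer in DLD1 and HCT8) were close to those of the silent genes, 39 of 128 (30.5%) with 50 or more counts in HIEC6. HIEC6 is 1 library, and these shares carry no test. Genes at 0 in HIEC6 numbered 38, and 10 of these were also at 0 in every silent library.

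The roles differed in how many of their genes HIEC6 held at 50 or more counts: 7 of 12 zinc finger genes, 6 of 12 metabolic enzymes and 7 of 16 noncoding genes, but 3 of 24 receptor, signalling and surface genes and 0 of the 5 other transcription factors. Ion channels and transporters had 2 of 8, immune and secreted mediators 2 of 7 and the remaining coding genes 1 of 7. The receptor, signalling and surface group was sorted by hand to include epithelial markers. Of the 10 listed epithelial markers, HIEC6 had few counts of EPCAM, CLDN3 and ESRP1 and 50 or more of the other 7. The part of the sorting by hand in the shares was not tested. The highest counts in HIEC6 were those of MB21D1 (1971), C9orf64 (1802), ACOT2 (1758), AGMAT (1137), CADM1 (1128) and MIR4458HG (989). AGMAT is an agmatinase, and MIR4458HG a long noncoding RNA. MB21D1 had 8.52 times and MIR4458HG 5.59 times their mean CPM in DLD1 and HCT8, AGMAT 2.05, CADM1 1.25, ACOT2 1.25 and C9orf64 0.744 times. CADM1 in HIEC6 lay near its DLD1 counts and well above the 54 and 96 in HCT8. Genes named above for their levels in DLD1 and HCT8 or their known roles, and not as a fixed list, had 3 or fewer counts: HIEC6 had 1 count of ISX, 0 of PROX1, 2 of LGR5, 0 of TFF1, 1 of TFF3, 0 of KIT, 1 of KCNE3 and 0 of TMPRSS2. In the whole group of receptor, signalling and surface genes, 16 of 24 had 3 or fewer counts and 5 had 4 to 49. HIEC6 also held under 50 counts of all 7 intestinal markers, whose part in this was not tested.

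CG-rich start windows did not follow the HIEC6 level in order. Of silent genes with 50 or more counts in HIEC6, 15 of 25 with a window (60%) were CG-rich, against 3 of 10 (30.0%) of those with 4 to 49 and 16 of 49 (32.7%) of those with 3 or fewer. The expressed genes in the same HIEC6 classes had 72.7%, 45.4% and 52.1%. The silent genes stood lower within each class, and in both sets the middle class was lowest. No test was made.

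**Figure D3:**
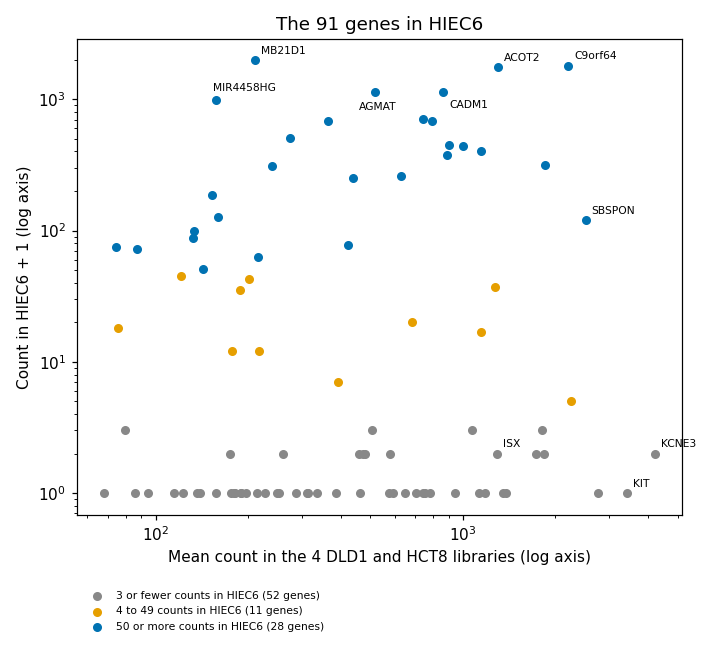
Count in HIEC6 plus 1 (y axis) against the mean count in the 4 DLD1 and HCT8 libraries (x axis), both on log axes, for the 91 genes. The 28 genes in blue have 50 or more counts in HIEC6, up to 1971 for MB21D1, while KCNE3, KIT and ISX, among the highest to the right, lie at 0 or 1 count.

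The 91 genes were spread over 21 of the 22 autosomes, with none on chromosome 15. Chromosome 19 held 11 (12.09%, against 6.76% of the expressed genes), chromosome 9 held 8 (8.79% against 4.47%) and chromosome 21 held 5 (5.49% against 1.02%). The 5 on chromosome 21 were HUNK, FAM3B, TMPRSS2, TFF3 and TFF1. FAM3B and TMPRSS2 lie 106572 bp apart, and TFF3 and TFF1 46871 bp. Between these pairs is a distance of 828733 bp.

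Within 100 kb, 14 of the 84 genes with a position formed 7 pairs. TP53TG1 and CROT start 104 bp apart and are read in opposite directions, from the window printed above. TP53TG1, a long noncoding RNA, had 54, 85, 227 and 244 counts in DLD1 and HCT8, 0 in each silent library and 185 in HIEC6. CROT had 681 counts in HIEC6, so both genes of the pair were on there. ZNF563 and ZNF442 lie 15650 bp apart on chromosome 19, with 63, 140, 290 and 311 counts and 79, 77, 220 and 196, and 42 and 50 in HIEC6. CST7 and ACSS1 lie 46301 bp apart and were unlike in DLD1 and HCT8, as given above. IGFL4 and IGFL2, insulin growth factor-like genes, lie 65986 bp apart, with 163, 462, 68 and 66 counts and 1354, 2171, 666 and 914. KCNMB3 and LRRFIP1P1 overlap on the same strand, and SNORD123 lies in SNHG18, so that neither pair is independent.

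Most other genes nearby were not silent. Of 146 expressed genes within 100 kb of a silent gene, 14 were silent genes themselves and are left out of the share below. Of the 84 genes, 61 had an expressed gene within 100 kb, and 112 of the 132 such neighbours that were no silent genes (84.8%) had 50 or more counts in each silent library, against 93.4% of all expressed genes. The median log2 ratio of the silent libraries to the DLD1 and HCT8 libraries (CPM + 0.05) was -0.69 for these neighbours and -0.28 for all expressed genes. Overlap with an expressed gene on the other strand was found for 10 silent genes, and for 6 of these the partner had 50 or more counts in each silent library. AGMAT overlaps DNAJC16, which had 2696, 2948 and 1987 counts in the silent libraries, and CRB2 overlaps DENND1A, which had 2712, 2743 and 3854. LGR5 overlaps TSPAN8, a tetraspanin of epithelial cells, which had 6, 2 and 2 counts there and 2705 to 7704 in DLD1 and HCT8. C9orf66 is now named DOCK8-AS1, an antisense noncoding RNA, and the rule kept it only under its older symbol. It overlaps DOCK8, which had 17, 6 and 18 counts in the silent libraries and 3295 to 6106 in DLD1 and HCT8. SEMA5A, 94 bp from SNHG18, had 14, 2 and 15, against 4098 to 13191. The strand setting of the counting is not given in the sources used here, so reads from overlapping genes may not have been told apart.

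Between the lines that used them, the 91 genes differed strongly. The comparison of HCT8 with DLD1, which the rule did not use beyond holding both to the same minimum, called 46 of 91 (50.5%), 20 higher and 26 lower in HCT8 (edgeR's quasi-likelihood test with treatment as a term, 2 libraries a line, adjusted p under 0.05). Of all 19513 genes tested 33.4% were called, and of the 11510 expressed genes 35.8%. The median size of the log2 difference was 0.854 for the silent genes and 0.427 for the expressed genes, and 16 silent genes (17.6%) against 3.59% of the expressed ones differed by more than 2 on the log2 scale. The median signed difference was 0.16, against 0.017 over all genes. The lower level of the silent genes, given above, goes with this, and its part was not tested.

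KIT differed most, with a log2 fold change of -6.35 (SE 0.26, adjusted p = 8.47e-08), followed by CST7 at -5.66 (SE 0.25, adjusted p = 1.22e-07) and CADM1 at -4.47 (SE 0.29, adjusted p = 1.17e-06). In the upward direction stood APCDD1 at 3.05 (SE 0.28, adjusted p = 1.46e-05), ISX at 2.71 (SE 0.23, adjusted p = 9.18e-06) and GPX3 at 2.71 (SE 0.20, adjusted p = 3.74e-06). For all 6 the counts of the lines do not overlap, which the choice of the largest differences made likely. The share of all genes without overlap was not counted, so this is a description only. LGR5 was also lower in HCT8 (-3.24, SE 0.24, adjusted p = 3.26e-06). By role, 11 of the 24 receptor, signalling and surface genes were lower in HCT8 and 2 higher. Of the 12 zinc finger genes 6 were higher and 1 lower, ZNF420 (-2.85, SE 0.34, adjusted p = 0.000115). Such shares were not counted for the expressed genes of the same roles, so these directions are not shown to be particular to the silent genes. Near silent genes, ZNF223 was also higher in HCT8 (427 and 451 counts in DLD1, 898 and 936 in HCT8). ZNF689 was lower (1231 and 1414, against 1072 and 634). All 5 other transcription factors were called, with ISX, DLX6 and DMRT2 higher and PROX1 and BATF lower. Among the metabolic enzymes 3 were higher and 2 lower. Immune and secreted mediators had 3 lower and 0 higher, namely CST7, RARRES2 and CX3CL1. With 1 library left out, which also removes the treatment term, between 9 and 28 of the 91 were called. Leaving out DLD1 gave 10 (3.62% of all genes called in that fit), DLD1 under hypoxia 9 (3.86%), HCT8 25 (19.6%) and HCT8 under hypoxia 28 (10.5%). KIT, CST7, CADM1, APCDD1, ISX and GPX3 stayed called each time.

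**Figure D4:**
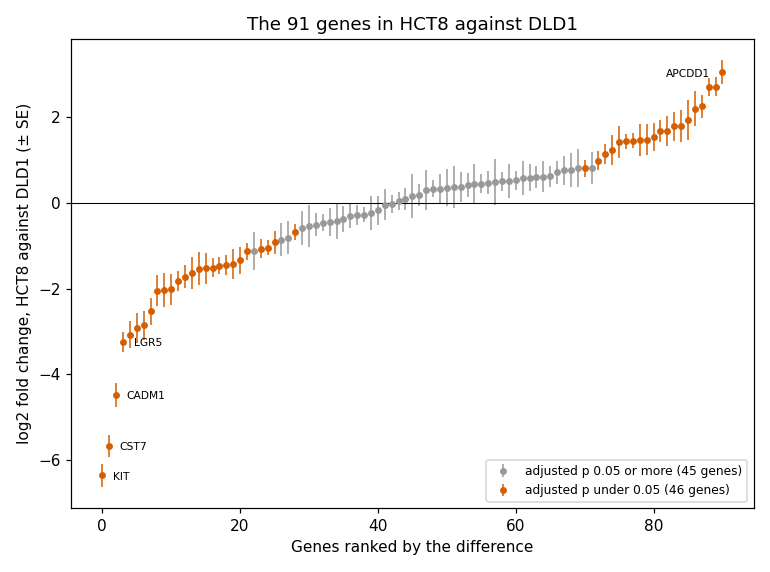
log2 fold change of HCT8 against DLD1 (y axis, points, with SE as bars) for the 91 genes ranked by it (x axis), orange where the adjusted p was under 0.05. Called genes sit at both ends, 26 below and 20 above 0, from KIT at -6.35 to APCDD1 at 3.05.

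The level order of the 91 genes was held less between the lines than that of all genes. Over the 91 genes the correlation of log2(CPM + 1) was 0.461 between DLD1 and HCT8, against 0.973 over all genes, and 0.942 and 0.897 between the libraries of DLD1 and of HCT8. With HIEC6 it was 0.095 to 0.186. These are descriptions across genes, and the limits of the rule and the narrow range of the 91 genes lower them.

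Hypoxia changed few of the silent genes. With edgeR's test on DLD1 and HCT8, 2 libraries against 2 without the line as a block, 0 of the 91 genes and 0 of 19513 (0%) had an adjusted p under 0.05. At an unadjusted p under 0.05 it found 0 of the 91 and 402 of all genes, and DESeq2 called 0 of the 91 and 74 of all. Each replicate number in the labels stands for 1 line, so these libraries are paired. With the line as a block, the test called 3 of the 91 genes, all higher under hypoxia, against 738 of all genes (3.78%) and 5.0% of the expressed genes. The share of 3 in 91 is thus near the background.

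RARRES2 (chr7:150035406-150038751), which encodes the chemoattractant adipokine chemerin, went from 818 to 2158 counts in DLD1 and from 287 to 742 in HCT8. Its log2 fold change with the block was 1.41 (SE 0.22, adjusted p = 0.00648). GGT6 (chr17:4460222-4464113), a member of the gamma-glutamyltransferase family, went from 132 to 480 and from 581 to 1108 (1.41, SE 0.26, adjusted p = 0.016). TFF3 went from 507 to 1048 and from 71 to 215 (1.31, SE 0.30, adjusted p = 0.0405). All 3 were higher under hypoxia in both lines. Without the block, leaving out 1 library moved RARRES2 between 0.49 and 2.42, GGT6 between 0.40 and 2.59 and TFF3 between -0.38 and 3.22, where TFF3 turned negative without DLD1 under hypoxia. Such a fit has no term for the line, so its hypoxia contrast also holds the difference between the lines. With HCT116 added, all 6 CRC libraries and the block, 0 of the 91 genes and 200 of 21045 (0.95%) were called. There RARRES2 stood at 1.48, GGT6 at 1.47 and TFF3 at 1.34 on the log2 scale. The rule held these genes to 3 or fewer counts in both HCT116 libraries, so this fit is no independent check on the 3 calls.

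Genes named for the size of their difference alone did not pass. DIRAS2, a small GTPase, had 107 and 199 counts in DLD1 and 58 and 193 in HCT8 (1.25 without the block, SE 0.61). CCL28 missed the threshold with the block (1.26, SE 0.33, adjusted p = 0.06). LOC105378604 had 156 and 65, and 392 and 141 (-1.31 without the block). CHRM1, a muscarinic acetylcholine receptor, had 120 and 67, and 487 and 194, and CST7 had 4472 and 2334, and 81 and 51. The log2 fold changes of CHRM1 and CST7 were -1.09 and -1.08, and turned to 0.13 without untreated HCT8 and to 3.92 without untreated DLD1. These fits had no term for the line, and both genes were lower under hypoxia in each line. By the ratio of CPM, 41 of the 91 genes were higher under hypoxia in both lines (45.1%, against 30.6% of the expressed genes), 21 lower in both (23.1% against 40.3%) and 29 opposite (31.9% against 29.0%). The median log2 ratio was 0.20 in DLD1 and 0.075 in HCT8, against -0.038 and -0.059 for the expressed genes. In HCT116 hypoxia brought no gene above 3 counts, which the rule itself fixes.

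**Figure D5:**
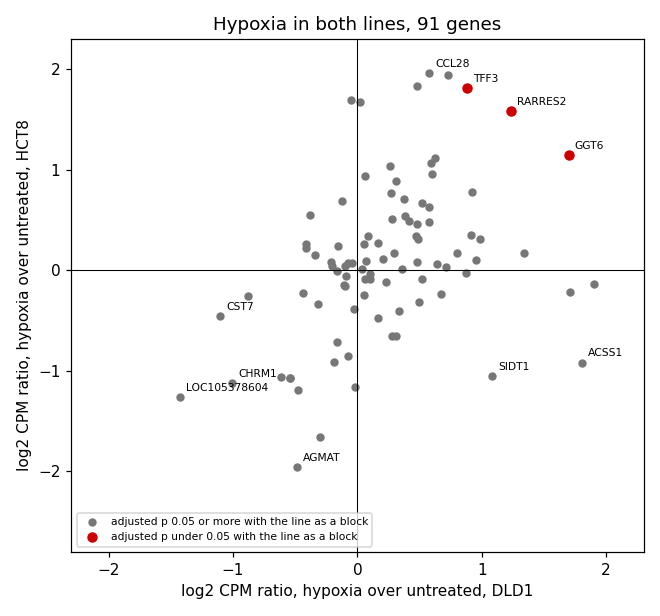
log2 ratio of CPM under hypoxia to untreated in DLD1 (x axis) and HCT8 (y axis), 1 library each, for the 91 genes. RARRES2, GGT6 and TFF3 (red), called with the line as a block, lie at the upper right, and ACSS1 and SIDT1 at the lower right have ratios of opposite sign.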

How the data were processed

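Total RNA of 5 untreated lines and of 3 CRC lines under hypoxia was analysed, as 8 libraries (0 columns left aside). The authors deposited raw counts per gene, without normalization. The methods of the study name GRCh37.p13 and the submitters' processing notes GRCh38 and HISAT2 2.0.4. The counter, its annotation, strand setting and treatment of multiple matches are not given in the sources used here. Total counts were 45519306 to 57374239.

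CPM are counts over the library total. The silent genes, gene lists, role groups and tests were chosen with earlier results of these data known, and role groups by hand after their values were seen. Named genes were the 12 highest in mean CPM in DLD1 and HCT8, the 6 highest in HIEC6, the 3 largest differences per direction under hypoxia and between the lines, 3 on each side of each limit, genes of a list and genes within 100 kb of each other. Others were named after their values were seen, as were the potassium channels.

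Tests used edgeR 4.0.16 in R 4.3.3 (glmQLFit and glmQLFTest, TMM, Benjamini-Hochberg over all genes tested, threshold 0.05) after a filter of 10 or more counts in 2 or more libraries, which all 91 silent genes passed, and were tested on simulated data. The standard error was the size of the log2 fold change over the root of F. Alternatives were DESeq2 1.42.0, limma-trend (limma 3.58.1), upper-quartile normalization, other filters, the line as a replicate block, each library left out, other limits of the rule, thinned counts, and, chosen after seeing the data, unplaced loci kept and the rule without NCM460. Same-line libraries deviated together from the group means (DLD1 r = 0.836, HCT116 r = 0.857, HCT8 r = 0.82), so the numbers pair the hypoxia samples by line.

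Symbols were matched to GENCODE release 44 lifted to GRCh37 and to RefSeq: 84 of the 91 genes had a GRCh37 position (79 by current symbol), 7 a RefSeq chromosome. Windows were read from the GRCh37 genome at the annotated starts.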

Additional observations from a re-analysis of the deposited data

Results flagged for a closer look

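Under hypoxia 29 of the 91 genes (31.9%) had log2 ratios of CPM of opposite sign in DLD1 and HCT8, against 29.0% of the expressed genes. The share is thus near the background, and the genes are noted only because the signs of their ratios differed. There was 1 pair of libraries per line, so the difference between the lines was not tested, and small ratios of either sign count towards it. By more than 0.75 in each line 2 genes were opposite (2.2%), against 0.0869% of the expressed genes. ACSS1 had a log2 ratio of 1.80 in DLD1 (267 to 1045 counts) and -0.92 in HCT8 (876 to 401). SIDT1, a transporter of nucleic acids, had 1.08 in DLD1 (76 to 180) and -1.05 in HCT8 (702 to 293). In both lines the untreated and the hypoxia library carry different codes in the description field of the labels. No group held the 4 libraries needed to look for a single library far from the rest.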

How the results depend on the processing

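The number of silent genes with 50 or more counts in HIEC6, 28 of 91, moved mostly with the limits of the rule. It was 18 of 55 with 100 or more counts required in DLD1 and HCT8, 8 of 24 with 0 allowed in the silent libraries and 64 of 164 with up to 10 allowed. As shares these were 32.7%, 33.3% and 39.0%, against 30.8%. It was 41 of 112 (36.6%) with the rule applied without NCM460. The other changes gave 26 to 38 genes. The count of silent genes that differed between HCT8 and DLD1, 46, was 20 without the treatment term (11.5% of all genes called, against 33.4%) and 9 to 28 with each library left out (3.62% to 19.6% of all genes), where the treatment term could not be kept. The other settings gave 42 to 48, or 59 of the 112 genes chosen without NCM460. Under hypoxia the replicate block, with the line as the pair, called 3 genes against 0 and raised all calls from 0 to 738. The other alternatives, with the block on all 6 CRC libraries among them, called 0 silent genes. Fits on all 6 are no independent check, as the rule held the silent genes to 3 or fewer counts in HCT116. RARRES2 and GGT6 (1.41 for both) and TFF3 (1.31) passed the threshold with the block. Leaving out 1 library moved CST7 between -5.45 and 3.92 and CHRM1 between -2.20 and 0.13, RARRES2 between 0.49 and 2.42, GGT6 between 0.40 and 2.59 and TFF3 between -0.38 and 3.22: CST7 turned positive without untreated DLD1 and CHRM1 without untreated HCT8, and TFF3 negative without DLD1 under hypoxia. These fits had no term for the line, so with 1 library left out the hypoxia contrast also holds the difference between the lines. By the ratio of CPM, CST7 and CHRM1 were lower under hypoxia in both lines and TFF3 was higher in both. The causes of the other changes were not tested. With 1 library per line and treatment, and 3 counts worth 0.0523 to 0.0659 CPM, depth does not separate a gene at 0 from one under this floor.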
